A study of Mus musculus with 14 samples.

Results

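The regions described are H3K4me1 peaks of mouse embryonic stem cells (ESCs) that overlapped no H3K27ac peak there. After treatment of the cells with retinoic acid (RA) they overlapped an H3K27ac peak. They were chosen from the deposited peak lists, and peaks near transcription start sites were not left out, so promoters may be among them. A peak of the H3K4me1 list of ESCs was kept if it shared no base with an H3K27ac peak of ESCs and at least 1 bp with an H3K27ac peak of RA-treated cells. Of 145840 H3K4me1 peaks, 74421 had no H3K27ac peak in ESCs, and 15971 of these met the rule. That is 11.0% of all peaks and 21.5% of those without an H3K27ac peak in ESCs. The 15971 are called newly acetylated peaks here, after the peak lists, and not every one of them gained H3K27ac counts. H3K4me1 in ESCs, and H3K27ac in ESCs and after RA, chose them. Every difference between these cell states is therefore given as a description without a test.

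Enhancers are stretches of DNA outside promoters that raise the transcription of genes at a distance. Monomethylation of lysine 4 of histone H3 (H3K4me1) is found at enhancers that are in use and at enhancers that are only primed, while acetylation of lysine 27 (H3K27ac) is typical of those in use. Methylation of cytosine at CpGs (5mC) is usually low where transcription factors bind an enhancer. ChIP followed by bisulfite sequencing (ChIP-BS-seq) reads 5mC only in the nucleosomal DNA that an antibody has brought down, so the same region can be read once in the DNA bound by H3K4me1 and once in that bound by H3K27ac.

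The cells were R1, a mouse ESC line, in 3 states. ESCs were kept for 2 days in medium without the MEK and GSK3 inhibitors (2i), differentiated cells were treated for 4 days with 1 µM RA, and extra embryonic endoderm (XEN) cells were made in 9 days with 0.1 µM RA and 10 ng/mL Activin A. For ESCs and RA-treated cells 1 library per mark was analysed, and for XEN cells 2 libraries per mark. RA treatment of this kind yields a mixture of cell types, so that in these bulk libraries fewer cells with a mark and less of the mark in each cell cannot be told apart. The markers of the cell types were not checked, since the transcripts in the single-cell tables of the series were not paired with gene names here, and the labels alone say what the cells were. The libraries held between 32305709 and 58803653 CpG counts in ESCs and RA-treated cells, and between 12147115 and 31345707 in XEN cells. Coordinates are those of mm9, the build in the submitters' processing notes. No annotation of that build was used, and the peaks are therefore given by position and without genes.

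Before the values of XEN cells are given, their labels need a caution. The marks of the 4 XEN libraries are exchanged between their sample labels and their file names, and the counts go against the labels. Across the 145840 peaks, the counts of the libraries labelled H3K4me1 followed those of H3K27ac in RA-treated cells (Spearman's rho 0.83 and 0.86) more closely than those of H3K4me1 (0.72 and 0.75). Those of the libraries labelled H3K27ac followed H3K4me1 in RA-treated cells (0.89 and 0.91) more closely than H3K27ac (0.80 and 0.82). These coefficients describe peaks that share CpG content and library depth. The libraries labelled H3K27ac were also the more methylated ones, with 61.5% 5mC in each over all counts, against 47.9% and 49.2% in those labelled H3K4me1, while in ESCs and in RA-treated cells H3K4me1 had the higher 5mC. The libraries are named by their labels throughout, and every difference between marks in XEN cells would turn its sign if the marks were exchanged.

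Newly acetylated peaks were rather short and lay apart from the H3K27ac peaks of ESCs. Their median length was 1548 bp (quartiles 1250 and 2313), against 1851 bp over all H3K4me1 peaks. Peaks that had H3K27ac in both cell states, 43818 in number, had a median length of 3618 bp, and the 16945 peaks that had no H3K27ac peak in either state but an H3K4me1 peak after RA (still primed peaks) had one of 1535 bp. The nearest H3K27ac peak of ESCs was 5480 bp away at the median, although 1786 newly acetylated peaks had one within 1000 bp. The H3K27ac peak of RA-treated cells covered a median of 79.0% of the H3K4me1 peak. There were 14642 such H3K27ac peaks, and 2416 newly acetylated peaks shared theirs with another one. They made up between 9.30% of the H3K4me1 peaks of chromosome X and 13.0% of those of chromosome 3, and none of the 22 peaks of chromosome Y.

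After RA, 14569 of the newly acetylated peaks (91.2%) also overlapped an H3K4me1 peak of the treated cells. Over all H3K4me1 peaks of ESCs the share was 55.4%, and among the other peaks without an H3K27ac peak in ESCs it was 29.0%. The remaining 1402 had acquired an H3K27ac peak with no H3K4me1 peak in the list of RA-treated cells.

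The rule has a threshold at each side, and peaks close to it differed little in counts. The 304 newly acetylated peaks that lay 1 to 200 bp from an H3K27ac peak of ESCs had a median of 0.516 H3K27ac CpG counts per kb and per 1000000 counts of the library in ESCs, and 365 peaks left out for sharing 1 to 200 bp with such a peak had 0.654. At the other side, the 667 that shared only 1 to 200 bp with an H3K27ac peak of RA-treated cells had 0.468 after RA, and 789 peaks left out for missing such a peak by 1 to 200 bp had 0.412.

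The counts that follow are the methylated and unmethylated CpGs read in the 200-bp bins that overlap a peak, scaled to a library of 1000000 CpG counts (counts per 1000000, CPM). Their density is the CPM divided by the length of the peak in kb. These counts rise with the mark and also with the number of CpGs in the DNA, so they are compared between libraries and between large classes of peaks. In ESCs the newly acetylated peaks looked like those that stayed primed. Their median H3K4me1 density was 1.14 (quartiles 0.748 and 1.67) against 1.19 in still primed peaks, and their H3K27ac density was 0.466 against 0.418. Peaks acetylated in both states had 1.66 and 1.20.

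After RA both marks were denser in the newly acetylated peaks, for H3K27ac through the rule itself. The median H3K27ac density was 0.991 (quartiles 0.607 and 1.78), against 0.371 in still primed peaks and 1.15 in peaks acetylated in both states. H3K4me1, which did not enter the rule in RA-treated cells, reached 1.93 (0.985 and 3.31), above the 1.46 of peaks acetylated in both states and the 1.01 of still primed peaks. The newly acetylated peaks held 4.59% of the H3K4me1 counts of ESCs and 7.26% of those of RA-treated cells. For H3K27ac they held 1.69% and 4.84%.

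**Figure D1:**
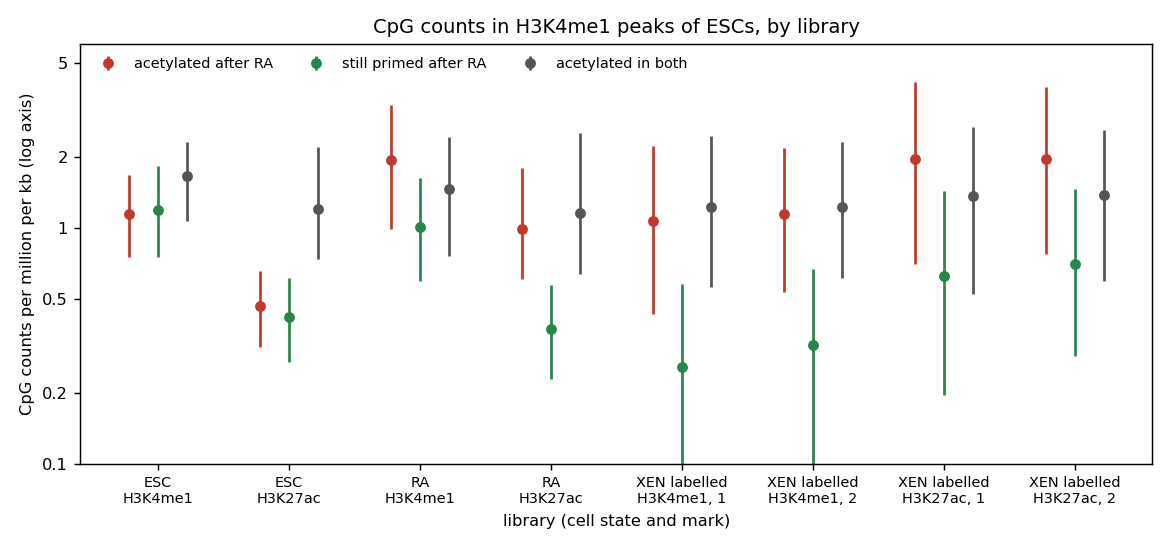
Density (CPM per kb of peak) in 3 classes of H3K4me1 peaks of ESCs (log axis) for each of the 8 libraries, with points at the median and lines from the lower to the upper quartile, cut at 0.1 where the lower quartile was 0. The newly acetylated peaks (red) stand beside the still primed peaks (green) in ESCs, at 1.14 and 1.19 for H3K4me1, and above them in each library of RA-treated and XEN cells.

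Peak by peak, the change of H3K4me1 was given as the log2 ratio of CPM after adding 1 CPM to each, which draws the ratio of weak peaks towards 0. It had a median of 0.47 over newly acetylated peaks (quartiles -0.10 and 1.08) and of -0.47 over all H3K4me1 peaks. With the libraries scaled by the median ratio over all peaks, so that this shift is taken out, the median of the newly acetylated peaks was 1.20. Scaled to counts outside peaks it was 0.40. All of the peaks were called on H3K4me1 of ESCs, so their fall after RA cannot be told apart from that choice. The value of 1.20 may therefore overstate the gain. H3K4me1 counts after RA exceeded a log2 ratio of 1 in 4437 (27.8%), beside 5.24% of all peaks. They were below -1 in 599 (3.75%), beside 24.4% of all peaks. For H3K27ac the median log2 ratio was 0.53 over newly acetylated peaks and -0.15 over all peaks. With 0.1 CPM added in place of 1, the former was 0.97. The ratio was above 0 in 14339 newly acetylated peaks (89.8%), beside 37.4% of all peaks, so the others showed no rise of counts. It exceeded 1 in 4232 (26.5%), beside 5.92% of all peaks, as the rule makes likely.

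The 5 individual peaks with the largest gain of H3K27ac were longer than the median, and 3 of them had under 7% 5mC in H3K4me1-bound DNA already in ESCs. The largest was chr5:75541897-75552296, a peak of 10400 bp, where H3K27ac CPM was 15.0 in ESCs and 124 after RA while that of H3K4me1 was 41.6 and 41.0. In its H3K4me1-bound DNA 6.62% of CpGs were methylated in ESCs (exact 95% interval 5.67 to 7.68) and 21.1% after RA (19.3 to 23.0). Its H3K27ac-bound DNA had 5.31% (3.50 to 7.68) and 4.31% (3.70 to 4.98). This peak thus gained 5mC in the DNA bound by H3K4me1 and not in that bound by H3K27ac. Such intervals are Clopper-Pearson intervals and cover counting error only, since the CpGs of a read and PCR copies are not independent.

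The next 4 by gain of H3K27ac were chr6:84532521-84540684, chr2:147863522-147867934, chr3:135487511-135492599 and chr15:25869787-25872677. Their H3K27ac CPM values were 11.5, 6.41, 5.25 and 1.96 in ESCs, in this order, and 120, 74.4, 59.1 and 54.8 after RA. Their 5mC in H3K27ac-bound DNA after RA was 7.12%, 6.66%, 9.11% and 13.2%, and in H3K4me1-bound DNA it was 18.7%, 22.6%, 35.5% and 40.6%. In all of these 5 peaks the H3K4me1-bound DNA was the more methylated one after RA, by between 11.6 and 27.5 percentage points. The peak on chromosome 15 rose 27.9-fold in H3K27ac and came from the highest 5mC of the 5 in ESCs, 36.2% in H3K4me1-bound and 48.4% in H3K27ac-bound DNA.

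5mC was read where a peak had at least 30 CpG counts in the library, and a difference between libraries was taken peak by peak where each of them had as many. The medians of single libraries that come first therefore rest on different peaks, 14932 and 14554 for H3K4me1 in ESCs and after RA and 6769 and 12230 for H3K27ac. In ESCs the newly acetylated peaks were partly methylated, with a median of 48.6% in H3K4me1-bound DNA (quartiles 39.0 and 56.8). This was above the 44.6% of still primed peaks and the 35.9% of peaks acetylated in both states. After RA the median was 60.4% (47.8 and 69.9) in H3K4me1-bound and 56.8% (40.0 and 68.4) in H3K27ac-bound DNA. With the counts of all newly acetylated peaks pooled, so that peaks with many counts weigh more, 5mC was 40.7% and 54.0% in H3K4me1-bound DNA of ESCs and RA-treated cells, and 45.3% and 43.5% in H3K27ac-bound DNA. The pooled H3K27ac value was therefore lower after RA, while the median over peaks was higher than the 50.0% of ESCs.

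**Figure D2:**
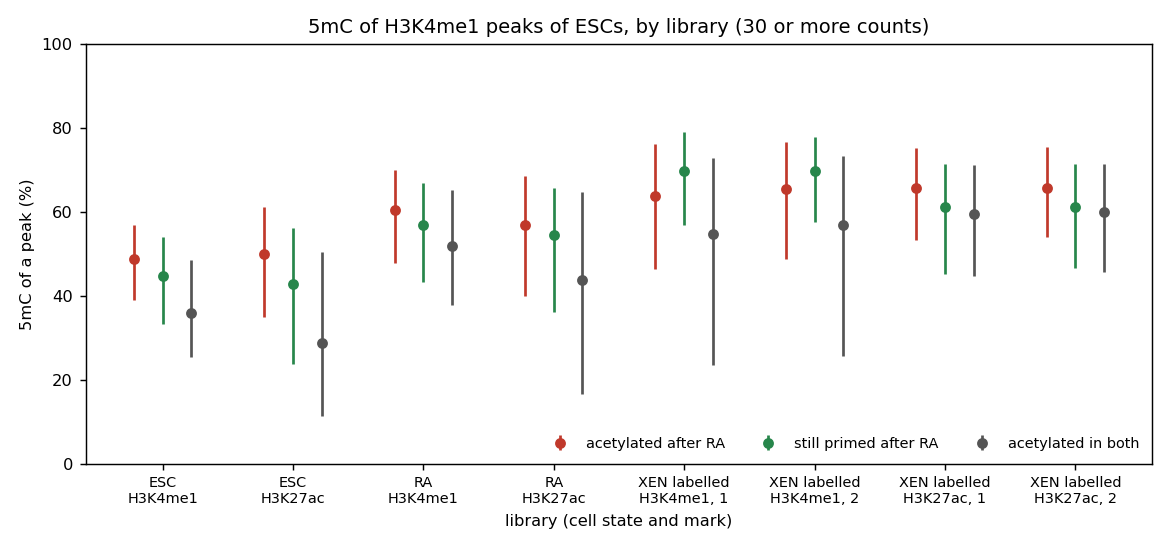
5mC of single peaks in 3 classes of H3K4me1 peaks of ESCs for each of the 8 libraries, among peaks with at least 30 CpG counts in that library, with points at the median and lines between the quartiles. The newly acetylated peaks (red) had the highest median of the 3 classes in the 4 libraries of ESCs and RA-treated cells, for example 48.6% in H3K4me1 of ESCs and 60.4% after RA.

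The same peaks followed from ESCs to RA-treated cells mostly gained 5mC. Of 13882 with enough counts in both H3K4me1 libraries, 82.5% were more methylated after RA, beside 89.1% of all H3K4me1 peaks, 85.5% of still primed peaks and 91.8% of peaks acetylated in both states. The median change was 12.9 points (quartiles 4.00 and 20.7) against 14.7 points over all H3K4me1 peaks. Rises past 20 points numbered 3755 (27.05%), beside 32.0% of all peaks. Falls past 20 points numbered 294 (2.12%), beside 0.607% of all peaks, which is 577 of 95012. The newly acetylated peaks thus held 294 of the 577 peaks with such a fall. Among still primed peaks 80 fell by as much, and among the peaks acetylated in both states 134. With a minimum of 60 counts, 171 of 10568 newly acetylated peaks fell by as much.

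In H3K27ac-bound DNA 6541 newly acetylated peaks had enough counts, and the median change was 5.43 points (quartiles -3.27 and 15.4). Rises past 20 points numbered 1041 (15.9%), beside 25.1% of all peaks, and falls 300 (4.59%), beside 1.32%. Most of the other peaks had under 30 H3K27ac counts in ESCs, where the rule allows no peak, and were left out. In the 6310 peaks with at least 30 counts in all 4 libraries, median 5mC went from 45.6% to 59.9% in H3K4me1-bound DNA and from 49.5% to 56.3% in H3K27ac-bound DNA.

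Few newly acetylated peaks were unmethylated at either time. In ESCs 781 of the 13882 (5.63%) had under 20% 5mC in H3K4me1-bound DNA, beside 9.83% of still primed peaks and 14.9% of peaks acetylated in both states. A further 6868 had 20% to under 50%, and 6233 had 50% or more. Of the 781 lowest, 154 (19.7%) were still under 20% after RA, beside 31.3% of still primed peaks and 24.5% of peaks acetylated in both states, and 597 (76.4%) lay between 20% and 50%. Of the 6233 that had 50% or more, 691 (11.1%) went to between 20% and 50% after RA and 21 to under 20%. In still primed peaks 393 of 4862 (8.08%) went to between 20% and 50%, and 1 to under 20%, and in peaks acetylated in both states 389 of 7761 (5.01%) and 5 did so. With 1 library per mark in each state, the difference between these shares has no replicate check.

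The 3 falls of 5mC that were largest, among peaks with at least 100 counts in both H3K4me1 libraries, were seen where both marks became denser. At chr15:12489883-12491411, 5mC in H3K4me1-bound DNA was 66.9% (57.8 to 75.2) in ESCs and 18.1% (14.6 to 22.1) after RA. Its H3K27ac-bound DNA had 65.0% and 9.99%, and its counts rose 20.2-fold for H3K27ac and 4.49-fold for H3K4me1. At chr2:13409947-13411775 the H3K4me1 values were 64.8% (57.0 to 72.1) and 19.0% (16.3 to 21.9), and at chr4:57335967-57337217 they were 52.0% (43.7 to 60.3) and 13.7% (11.3 to 16.4). These 2 peaks gained H3K4me1 counts 6.01-fold and 6.16-fold and H3K27ac counts 11.0-fold and 9.40-fold. The 3 peaks were covered from end to end by an H3K27ac peak after RA.

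The 3 rises of 5mC that were largest were at peaks with little gain of H3K4me1. They were chr8:11430053-11431816, chr10:67689323-67691618 and chr15:102802145-102803677, where 5mC in H3K4me1-bound DNA went from 24.3% to 78.4%, from 24.7% to 76.2% and from 14.2% to 63.4%. H3K4me1 counts changed 1.25-fold, 0.527-fold and 0.701-fold. The peaks on chromosomes 10 and 15 only touched their H3K27ac peak, which covered 4.88% and 12.5% of them, while the one on chromosome 8 was covered whole and its H3K27ac counts rose 6.15-fold.

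Around the centres of their H3K27ac peaks, the newly acetylated regions showed a dip of 5mC that was present in ESCs too. In the 200-bp bin at the centre, pooled 5mC was 37.4% in H3K4me1-bound DNA of ESCs and 48.9% after RA, and at 2000 bp downstream it was 46.2% and 62.6%. In H3K27ac-bound DNA the centre had 36.8% in ESCs and 35.5% after RA, against 50.2% and 52.6% at 2000 bp. At the centre pooled 5mC of the DNA bound by H3K27ac was therefore nearly the same in both states, while that of the DNA bound by H3K4me1 was higher after RA. Pooling gives peaks with many counts more weight. Taken peak by peak over whole peaks, 5mC in H3K27ac-bound DNA had a median change of 5.43 points. The CPM at the centre per 1000 peaks was 250 for H3K4me1 and 132 for H3K27ac in ESCs, and 559 and 445 after RA. At 2000 bp downstream it was 114 and 73.4 in ESCs, and 189 and 139 after RA. Both marks thus had more counts at the centre than there in ESCs already.

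**Figure D3:**
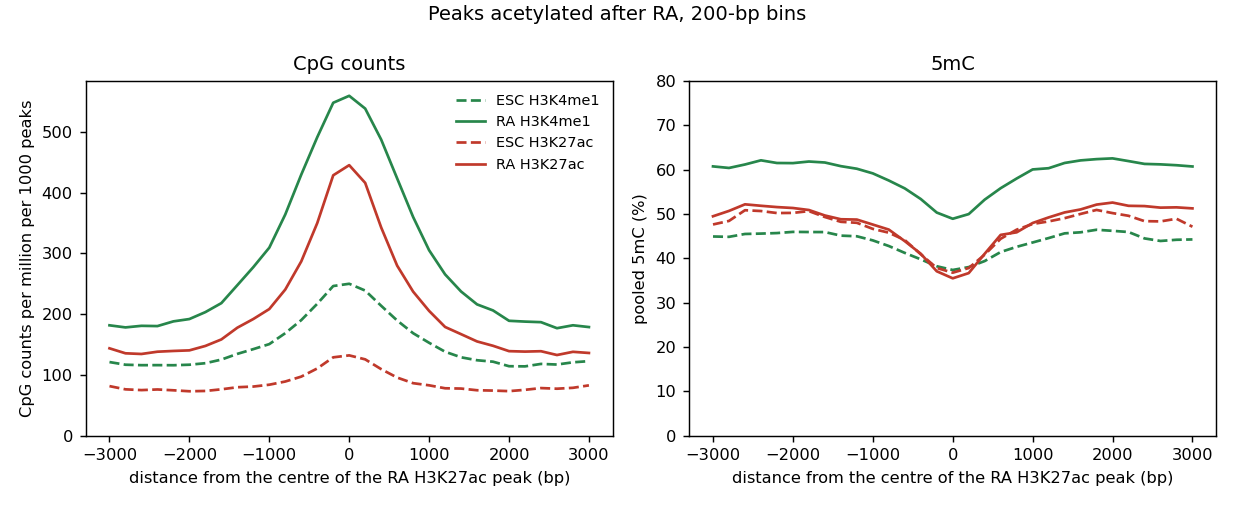
CpG counts (left) and pooled 5mC (right) of newly acetylated peaks in 200-bp bins up to 3000 bp from the centre of their H3K27ac peak in RA-treated cells, in ESCs (dashed) and after RA (solid), for H3K4me1 (green) and H3K27ac (red). At the centre 5mC was 35.5% in H3K27ac-bound and 48.9% in H3K4me1-bound DNA after RA.

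The marks were next compared within RA-treated cells, in the 11810 newly acetylated peaks with enough counts of both. The H3K4me1-bound DNA was more methylated in 69.5% of them, beside 72.0% of all peaks, 62.7% of still primed peaks and 78.8% of peaks acetylated in both states. The difference had a median of 4.59 points (quartiles -1.40 and 10.9), against 6.36 points over all H3K4me1 peaks and 9.09 in peaks acetylated in both states. From the pooled counts of all newly acetylated peaks the difference was 10.5 points. A difference of more than 20 points was counted on 5mC summed over a whole peak. Because differentially methylated enhancers are defined in the study on single 200-bp bins away from transcription start sites, the counts that follow are not counts of those. By this measure the H3K4me1-bound DNA was higher in 811 newly acetylated peaks (6.87%), beside 15.5% of all peaks, and the H3K27ac-bound DNA in 76 (0.644%), beside 1.06%. The 76 became 152 with a minimum of 20 counts and 13 with one of 60. In ESCs the median difference was -2.62 points over 6768 newly acetylated peaks, with H3K27ac-bound DNA the higher, against -1.24 points in still primed peaks and 1.76 points over all peaks. Differences past 20 points were seen there in 94 with H3K4me1 higher (1.39%, beside 4.44% of all peaks) and in 338 with H3K27ac higher (4.99%, beside 2.63%).

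Among peaks with at least 100 counts of both marks after RA, the 3 with the largest excess in H3K4me1-bound DNA had low 5mC in both marks in ESCs. At chr1:133140165-133141680, RA-treated cells had 61.0% 5mC (54.9 to 66.9) in H3K4me1-bound and 11.3% (6.45 to 17.9) in H3K27ac-bound DNA, and ESCs had 26.1% and 3.57%. At chr9:116082551-116084125 the values after RA were 58.7% (53.3 to 64.0) and 9.07% (7.20 to 11.2), and those in ESCs were 21.1% and 12.9%. At chr4:134106918-134108194 they were 55.2% (47.5 to 62.8) and 6.07% (3.44 to 9.82) after RA, and 20.3% and 19.5% in ESCs. At these 3 peaks the DNA bound by H3K4me1 gained at least 34.97 points while that bound by H3K27ac stayed at or below 20% in both states.

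In the opposite direction the largest differences were smaller. At chr11:76725608-76726607 the H3K4me1-bound DNA had 33.8% (28.7 to 39.2) and the H3K27ac-bound DNA 56.2% (46.9 to 65.2) after RA, at chr12:99930525-99934263 they had 57.4% and 79.3%, and at chr4:139193434-139201030 they had 50.8% and 68.2%. The last of these peaks had fewer H3K27ac counts after RA than in ESCs, 3.31 against 6.72 CPM, and its H3K27ac peak covered 13.2% of it.

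Within the newly acetylated peaks, 5mC was lowest where H3K27ac was densest after RA. The peaks were divided into 4 groups of about equal size by their H3K27ac density in RA-treated cells, so the 5mC of that library comes from the counts that made the groups, while the other libraries are separate. The groups already differed in density in ESCs, where the medians were 0.688, 1.08, 1.34 and 1.55 for H3K4me1 and 0.307, 0.462, 0.539 and 0.607 for H3K27ac from the lowest group to the highest. In the same order, median 5mC in H3K4me1-bound DNA after RA was 63.4%, 64.0%, 61.6% and 50.0%. In ESCs it was 49.4%, 50.0%, 49.2% and 45.3%, so that for H3K4me1 most of the difference between the groups was seen after RA. In H3K27ac-bound DNA the densest group was already lower in ESCs, with medians of 52.9%, 54.1%, 51.6% and 42.4%. After RA these were 63.3%, 62.5%, 59.8% and 41.7%. The median change of H3K4me1 5mC from ESCs was 15.6, 14.5, 13.2 and 8.87 points. The falls of more than 20 points numbered 22 of 2739, 34 of 3513, 46 of 3711 and 192 of 3919 (0.803%, 0.968%, 1.24% and 4.90%), beside 0.607% of all peaks. The excess of H3K4me1 over H3K27ac by more than 20 points after RA was seen in 34 of 1120, 105 of 2919, 183 of 3798 and 489 of 3973 (3.04%, 3.60%, 4.82% and 12.3%), beside 15.5% of all peaks. The densest group thus had the highest of the 4 shares for both, and its share with such an excess was still below that over all peaks.

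**Figure D4:**
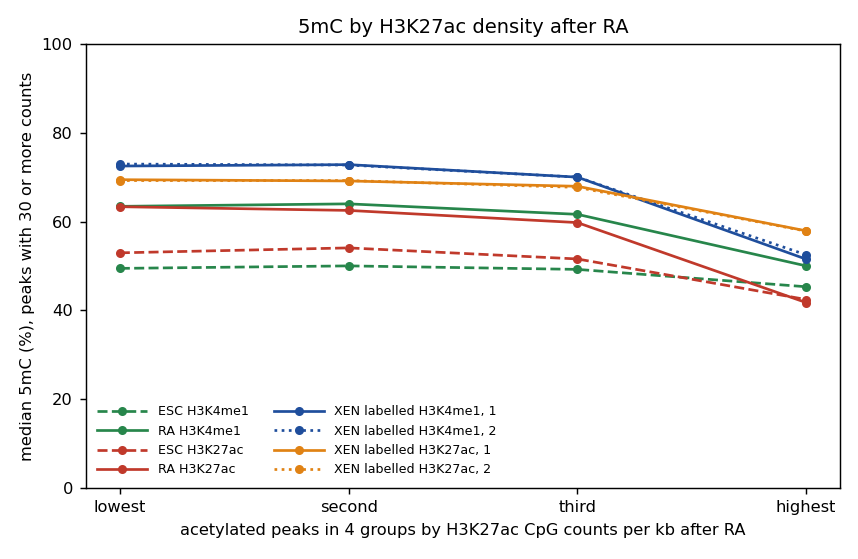
Median 5mC of newly acetylated peaks in 4 groups by H3K27ac density after RA, for each of the 8 libraries, among peaks with at least 30 counts in that library. The median was lowest in the densest group in each library, at 50.0% for H3K4me1 after RA and at 51.5% and 52.5% in the XEN libraries labelled H3K4me1.

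XEN cells were not used to choose the peaks and are the one cell state with replicate libraries. The 2 libraries of each label differed by more than sampling noise (chi-square per degree of freedom 4.54 for the label H3K4me1 and 4.27 for H3K27ac, over peak counts), and they were counted as 2 samples. Whether they come from separate cultures is not given in the sources used here, so the spread between them may be technical. Bins with fewer than 4 counts are missing from these files. The newly acetylated peaks were dense in XEN cells. Of the 15971, 13236 (82.9%) had counts in all 4 libraries, compared with 51.5% of still primed peaks, 55.6% of all H3K4me1 peaks and 90.02% of the longer peaks acetylated in both states, and 112 had none in any.

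Their median density was 1.07 and 1.15 in the 2 libraries labelled H3K4me1 and 1.95 in each of those labelled H3K27ac. In still primed peaks it was 0.258 and 0.319, and 0.623 and 0.702. In peaks acetylated in both states it was 1.23 and 1.22, and 1.36 and 1.38. The newly acetylated peaks were thus denser than still primed peaks in each of the 4 libraries, and denser than peaks acetylated in both states in the 2 libraries labelled H3K27ac. They held 5.13% and 5.06% of the counts of the libraries labelled H3K4me1, and 9.10% and 8.65% of those of the libraries labelled H3K27ac. The log2 ratio of the label H3K27ac over the label H3K4me1 had a median of 0.55 in replicate 1 and 0.53 in replicate 2, against 0 over all peaks and 0.45 and 0.44 in still primed peaks. Over both replicates it was 0.54, and it became 1.33 when the libraries were scaled to their counts outside peaks (0.42 over all peaks) and 0.29 when they were scaled by the median ratio over all peaks. With the libraries scaled to their total counts, the ratio exceeded 1 in 29.9% (beside 15.5% of all peaks and 28.3% of still primed peaks) and in 26.0% (beside 12.9% and 24.3%). It was below -1 in 5.65% (beside 9.15%) and in 4.70% (beside 8.01%).

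At least 30 counts in all 4 XEN libraries were reached by 5670 newly acetylated peaks (35.5%), compared with 642 still primed peaks (3.79%), 26642 peaks acetylated in both states (60.8%) and 34419 of all peaks (23.6%). In these 5670, median 5mC was 62.1% and 62.9% in the libraries labelled H3K4me1 (62.5% ± 0.539, SD, n = 2) and 66.4% and 66.1% in those labelled H3K27ac (66.3% ± 0.191, SD, n = 2). Both libraries of one label lay below both of the other. A two-sided exact permutation test of 2 libraries against 2 gave p = 0.333, which is the smallest p this design allows. By the mean of the replicates, 379 of the 5670 (6.68%) had over 20 points more 5mC with the label H3K27ac, beside 21.1% of all peaks, and 11 (0.194%) with the label H3K4me1, beside 0.610%. The same peaks had a median of 47.9% in H3K4me1-bound DNA of ESCs and 59.2% after RA.

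Single peaks were tested between the labels with edgeR's quasi-likelihood test on methylated and unmethylated counts, over all 34419 peaks together. At an adjusted p under 0.05, 5mC was higher in the libraries labelled H3K27ac in 901 of 5670 newly acetylated peaks (15.9%), beside 34.6% of all peaks tested. It was higher in those labelled H3K4me1 in 25 (0.441%), beside 1.93%. Both shares lay below those over all peaks. With a minimum of 60 counts, the share with the label H3K27ac higher was 25.1% of 2713 newly acetylated peaks, beside 45.2% of all peaks tested. With limma in place of edgeR, 496 were called with the label H3K27ac higher (8.75%, beside 24.0% of all peaks tested) and 21 with the label H3K4me1 higher. Leaving out a library leaves 1 library of its label, whose spread is then not measured, so numbers of called peaks are not compared. The median log2 odds ratio of methylation, label H3K4me1 over label H3K27ac, was -0.31 over newly acetylated peaks with all 4 libraries. It was -0.29 and -0.33 without replicates 1 and 2 of the label H3K4me1, and -0.31 and -0.33 without those of the label H3K27ac. In peaks acetylated in both states the share with the label H3K27ac higher was 41.1%, and in the 642 still primed peaks it was 6.54%.

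The peaks whose H3K4me1-bound DNA was the more methylated one after RA mostly differed between the labels in XEN cells too, in the opposite direction by label. These subsets were formed after values of the data had been seen. Of the 811 newly acetylated peaks whose H3K4me1-bound DNA was over 20 points higher after RA, 370 had enough counts in all 4 XEN libraries. Their median 5mC was 22.9% in each library labelled H3K4me1, and 48.3% and 48.8% in those labelled H3K27ac. The label H3K4me1 was lower in both replicates in 319 of the 370 (86.2%), beside 94.5% of the 7559 peaks with that difference after RA among all H3K4me1 peaks. edgeR's test called 260 of the 370 (70.3%) in this direction and 1 in the other, beside 86.5% of the 7559 in this direction. Among the 5215 newly acetylated peaks within 20 points after RA that had enough counts, it called 641 (12.3%), beside 20.3% of all such peaks. Of the 76 with H3K27ac-bound DNA over 20 points higher after RA, only 8 had enough counts. The label H3K4me1 was lower in both replicates in 3 of these and higher in both in 3, and the median difference was 2.36 points in replicate 1 and -2.77 points in replicate 2.

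The peaks that lost 5mC after RA had low 5mC in XEN cells. Of the 294 with a fall of more than 20 points, 167 had enough counts in all 4 XEN libraries, and their medians were 26.9% and 28.4% in the libraries labelled H3K4me1 and 35.7% and 35.8% in those labelled H3K27ac. Over all H3K4me1 peaks with such a fall they were 27.8% and 29.4%, and 35.7% and 36.5%. In the 1436 newly acetylated peaks with a rise of more than 20 points the medians were 71.8% and 72.3%, and 74.3% and 74.1%. The 294 were also denser in XEN cells than newly acetylated peaks as a whole, at 2.71 and 2.48 against 1.07 and 1.15 for the label H3K4me1 and at 5.10 and 4.87 against 1.95 in each for the label H3K27ac. All 4 libraries, none of which entered the choice of the 294, thus gave the same order.

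Of the 23 peaks named here by their values, 15 had enough counts for edgeR's test between the labels. In 10 of them 5mC was lower with the label H3K4me1, in 1 it was higher, and 4 did not pass the threshold, beside 34.6% and 1.93% of all peaks tested in these directions. These peaks were chosen for large counts or differences, so nothing is read from their shares. At chr15:12489883-12491411, where 5mC fell to 18.1% after RA, XEN libraries labelled H3K4me1 had 11.1% and 13.0% and those labelled H3K27ac had 27.5% and 29.7% (edgeR adjusted p = 0.000196). At chr4:57335967-57337217 the values were 12.4% and 13.0%, and 23.7% and 23.0% (adjusted p = 0.00343). At chr2:13409947-13411775 they were 18.8% and 20.8%, and 28.2% and 25.7%, which did not pass the threshold (adjusted p = 0.0559). At chr9:116082551-116084125 they were 13.1% and 16.5%, and 63.8% and 56.0% (adjusted p = 9.46e-09), and at chr4:134106918-134108194 they were 8.70% and 22.1%, and 63.5% and 69.8% (adjusted p = 3.84e-06). The third peak with a large excess in H3K4me1-bound DNA, on chromosome 1, had 9 and 19 counts in the libraries labelled H3K4me1 and was not tested. At chr8:11430053-11431816, which had the largest rise of 5mC after RA, the libraries labelled H3K4me1 had 81.6% and 80.9% and those labelled H3K27ac 79.3% and 81.0% (adjusted p = 0.891). At chr12:99930525-99934263, where the H3K27ac-bound DNA was the more methylated one after RA, the values were 80.9% and 70.5%, and 67.4% and 63.9% (adjusted p = 0.206).

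**Figure D5:**
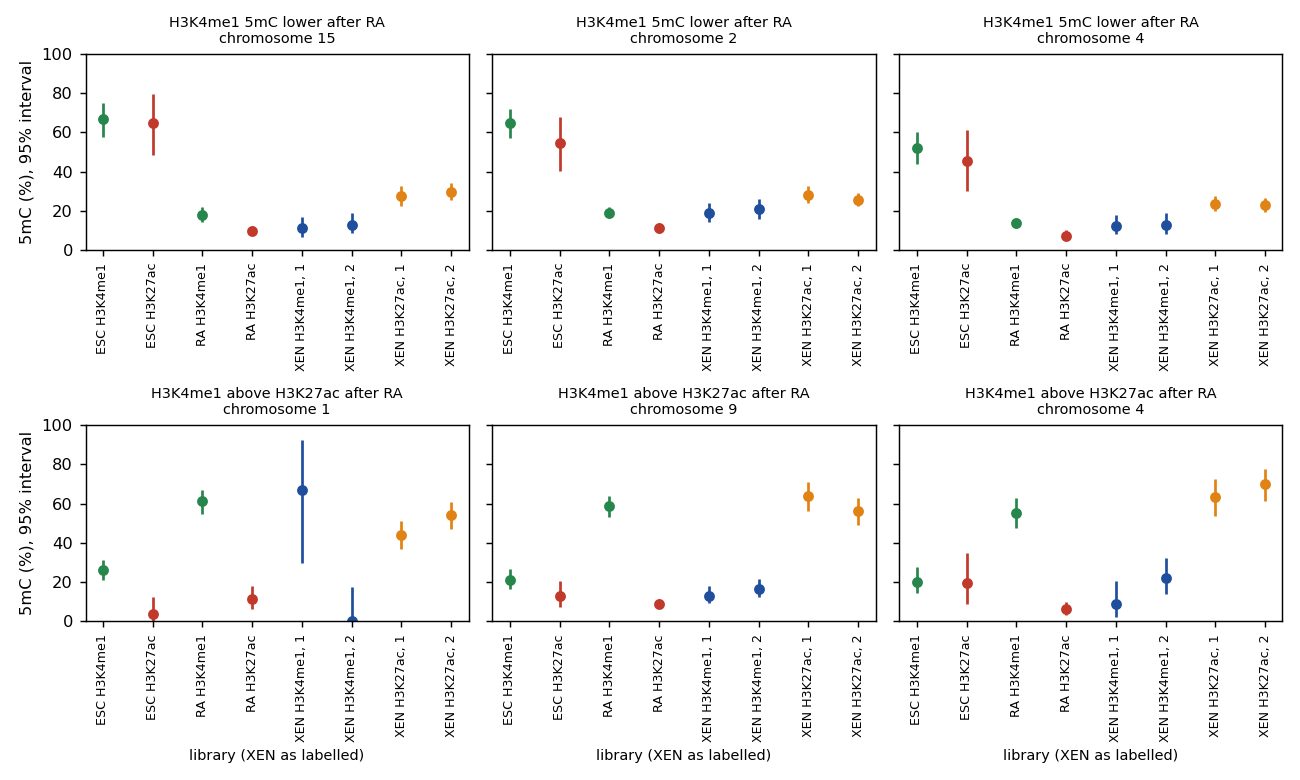
5mC of 6 newly acetylated peaks in the 8 libraries with exact 95% intervals of counting error, XEN libraries being named by their labels. The upper 3 peaks lost H3K4me1 5mC after RA, and at the lower 3 H3K4me1-bound DNA was far more methylated than H3K27ac-bound DNA after RA, as at the peak on chromosome 9 with 58.7% and 9.07%.

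All of the 5 peaks with the largest gain of H3K27ac after RA had lower 5mC in the libraries labelled H3K4me1. At chr5:75541897-75552296 it was 7.99% and 9.44% against 40.3% and 40.6% (adjusted p = 5.98e-13), and the other 4 had adjusted p-values between 2.62e-11 and 0.000214 by edgeR. One of the 5, chr6:84532521-84540684, had few counts in the libraries labelled H3K4me1, 2.63 and 3.38 CPM, and many in those labelled H3K27ac, 57.3 and 49.1. The other 4 had between 29.6 and 68.0 CPM in the former. This peak was the one of the 5 in which the libraries labelled H3K4me1 were sparse.

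By CPM, and not by density, the 3 highest newly acetylated peaks of the libraries labelled H3K27ac were chr8:124841129-124846531, with 96.3 and 80.3 CPM, chr8:122333352-122339278, with 93.9 and 79.3, and chr12:99917871-99929887, with 92.5 and 79.5. Unlike the peaks with the largest gain of H3K27ac after RA they were well methylated, with between 62.5% and 64.8%, between 64.8% and 65.1%, and between 69.9% and 73.7% 5mC in these libraries. The labels were compared at these peaks with edgeR's test. The first had 63.2% and 66.2% in the libraries labelled H3K4me1 (adjusted p = 0.758), the second had a lower 57.6% and 54.0% (adjusted p = 0.00114), and the third had a higher 79.2% and 78.4% (adjusted p = 0.000982). Their counts after RA had risen 2.90-fold, 1.81-fold and 1.54-fold in H3K4me1 and 8.83-fold, 6.18-fold and 3.91-fold in H3K27ac.

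Some peaks with many H3K27ac counts after RA had few in the libraries labelled H3K27ac. Of the 1611 newly acetylated peaks in the top 10% by H3K27ac counts after RA, a rank that a long peak can reach without being dense, the 3 with the fewest such counts were chr10:67739910-67741163, chrX:141938452-141939451 and chr9:119368944-119377608. The first had 11 and 0 counts in these libraries and 85 and 88 in those labelled H3K4me1, and it was unmethylated throughout, with at most 1.82% 5mC in the libraries that had counts. The peak on chromosome X had 17 and 14 counts against 81 and 76, and its H3K27ac-bound DNA had 2.92% 5mC after RA (1.41 to 5.30), while in ESCs it had 21 counts, too few for a comparison. Its H3K4me1-bound DNA had 38.8% in ESCs and 32.7% after RA, the latter on 52 counts. The methylated ones among these 52 came only from bins that cross the ends of the peak. Bins wholly inside held no methylated count, and whether they held any count is not shown. The peak on chromosome 9 was 8665 bp long and had 27 and 33 counts against 81 and 140, and with 6.96 H3K27ac CPM after RA against 7.09 in ESCs it had not gained the mark by counts, although an H3K27ac peak covered 17.8% of it.

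The 1402 newly acetylated peaks without an H3K4me1 peak after RA differed from the others in each cell state. Their median H3K4me1 density was 1.05 in ESCs and 0.335 after RA, against 1.15 and 2.12 in the 14569 that had one, as the division implies. Their H3K27ac density after RA was 0.729 against 1.04. Their median 5mC was 54.5% in H3K4me1-bound DNA of ESCs and 72.5% after RA, against 48.0% and 59.8%. In XEN cells the density of the libraries labelled H3K27ac was 0.184 and 0.255, against 2.20 in each for the others, while in those labelled H3K4me1 it was 0.906 and 0.956, against 1.07 and 1.16. The median 5mC of these peaks was 81.8% and 82.1% in the libraries labelled H3K4me1 and 79.3% and 79.5% in those labelled H3K27ac. These medians do not hold for every peak. Of the 1402, 252 and 379 had at least 30 counts in the libraries labelled H3K27ac, and 191 and 125 had no listed counts in those labelled H3K4me1.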

How the data were processed

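ChIP-BS-seq of H3K4me1 and H3K27ac was analysed in 8 libraries, grouped by the sample labels. Reads were aligned by the authors with Bismark and Bowtie to mm9, per the submitters' processing notes (versions not given in the sources used here), and reads with CpGs in mixed states were removed. The deposited files hold the raw count of methylated and of unmethylated CpGs in each 200-bp bin. The methylated column was taken as the one rare on mitochondrial DNA. The deposited HOMER peak lists (peak size set to 2500 bp by the authors, local and clonal filtering off) carry a score per peak, used only to rank peaks. Whether ESC and RA files pool repeats is not given in the sources used here.

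Bins overlapping a peak were summed. Peaks needed 30 CpG counts in each library compared, and 100 where a 5mC difference named them. Named were the 5 with the largest rise of H3K27ac CPM (counts per 1000000), the 3 with the largest change of 5mC between states and difference between marks in each direction, the 3 highest in the XEN libraries labelled H3K27ac, and the 3 lowest there within the top 10% by H3K27ac after RA. Exact intervals cover counting error. XEN labels were compared with edgeR 4.0.16 (quasi-likelihood, Benjamini-Hochberg over all peaks tested) and with limma 3.58.1 in R 4.3.3 as an alternative. Other values came from Python 3.11.15, numpy 2.4.6, scipy 1.17.1 and pandas 2.3.3, and figures from matplotlib 3.10.9.

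The peaks, classes and tests were chosen with earlier results of these data known. The alternatives were coverage minimums of 20 and 60, other overlaps, thresholds, scalings and pseudocounts, and leaving out each XEN library. Input, H3K36me3 and single-cell samples were not analysed here.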

Additional observations from a re-analysis of the deposited data

Results flagged for a closer look

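The difference of 5mC between the marks in newly acetylated peaks had opposite signs in the 2 cell states with 1 library per mark. The median of H3K4me1 minus H3K27ac was 4.59 points after RA and -2.62 points in ESCs, where the rule leaves few H3K27ac counts. Still primed peaks had 3.79 and -1.24 points, so the change of sign was seen there too. This change of sign was not tested.

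In XEN cells as labelled, the difference was -5.01 points in replicate 1 and -4.04 points in replicate 2, opposite in sign to the 4.59 points after RA. It was not tested against RA-treated cells, and the sign rests on labels that the counts go against.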

How the results depend on the processing

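Of the values recomputed, the one that turned its direction was the 5.43-point rise of H3K27ac 5mC after RA, which was -1.77 points from pooled counts. It was 4.91 points at 20 counts, 4.98 at 60, 6.39 in bins wholly inside the peak, 3.79 when an H3K27ac peak had to cover at least 50% of the peak and 4.77 in peaks with an H3K4me1 peak after RA. These alternatives for it were chosen after seeing the data. The number of newly acetylated peaks was 9456 when H3K27ac peaks of RA-treated cells had to reach the median score. The rise of H3K4me1 5mC was 13.0 points at 60 counts, 11.6 when an H3K27ac peak had to cover at least 50% of the peak, 13.3 from pooled counts and 12.6 in peaks with an H3K4me1 peak after RA, an alternative chosen after seeing the data. The difference between the marks after RA was 4.29 points at 20 counts, 5.95 at 60, 4.70 with that coverage of the peak and 10.5 from pooled counts. At 30 points, 938 peaks rose and 78 fell, and the marks differed in 175 with H3K4me1 higher and 5 with H3K27ac higher. At 60 counts 171 fell, and H3K27ac was higher in 13, against 152 at 20 counts. Log2 count changes were, for H3K4me1, H3K27ac and the XEN labels, 0.40, 0.61 and 1.33 when scaled to counts outside peaks, 1.20, 0.77 and 0.29 when scaled by the median ratio, 0.67, 0.97 and 0.81 with a pseudocount of 0.1, and 0.54, 0.59 and 0.61 in peaks with 30 counts. The cause of these shifts was not tested.

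Leaving out each XEN library gave between 0.52 and 0.55 for the label ratio, between -4.77 and -4.23 points for the label difference and between 507 and 930 called peaks. limma called 517. With the replicate number as a block, 905 peaks were called, the difference was -4.53 points and the ratio 0.54. The numbers did not pair the libraries (correlation of deviations -0.0083). At a peak with 30 counts, the interval of 5mC is wide, which limits single peaks.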
